A study of Homo sapiens with 4 samples.

Results

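The 9 genes NQO1, HMOX1, GPX2, FTL, FTH1, TXNRD1, GCLM, GCLC and SRXN1 were chosen by symbol as known targets of the transcription factor NRF2, with both ferritin chains among them. Earlier results of these data were known at that choice, so shares of members set beside shares of all genes are descriptive. All 9 were found by symbol among the 36601 genes of both deposited single-cell tables. They were followed in aggregates and in TE-like and Epi-like cells of blastoids, which are blastocyst-like structures grown from naive embryonic stem cells. NRF2 is held low by KEAP1, which hands it to a CUL3 ubiquitin ligase, and electrophiles or peroxides release it to bind antioxidant response elements with small MAF proteins, while BACH1 occupies the same elements as a heme-sensitive repressor. Its targets make glutathione, recycle thioredoxin and peroxiredoxins, reduce quinones, break down heme and store the iron so released. Ferritin is also set at translation, since iron regulatory proteins bind a stem-loop near the start of its message when iron is scarce.

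All cells came from H9, a single established line of human embryonic stem cells held in a naive state, so the cultures differ in the compound, the stage and the run and share one genotype. Naive cells were aggregated in microwells without (0 mM) or with (4 mM) dm-αKG, the dimethyl ester and cell-permeable form of α-ketoglutarate, during the initial 40 h. Aggregates were collected at 40 h, and blastoids at 120 h, after further culture to which the compound was no longer added. Only blastoids with a single cavity were picked, cells were sorted, and the study states that fragile TE cells are lost when structures are dissociated, so cell shares do not give the make-up of a blastoid. Run 1 held 4 hashtagged cultures (blastoids and aggregates at 0 and 4 mM) and run 2 held 2 (blastoids at 0 and 4 mM). An arm is 1 such culture in 1 run, so each dose has 2 arms of blastoids and 1 of aggregates.

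Values are unique molecular identifiers (UMIs, 1 per captured transcript), summed over the cells of an arm and class and given as CPM, the usual scaling of counts to a common library total. A blastoid cell was TE-like where its UMIs of KRT8, KRT18, GATA3 and CLDN4 exceeded those of POU5F1, DPPA5, DPPA4, L1TD1 and TDGF1, and Epi-like otherwise. None of the 9 genes is in that rule. In the order run 1 at 0 and 4 mM, then run 2 at 0 and 4 mM, TE-like cells numbered 18, 49, 181 and 170, and Epi-like cells 408, 1043, 3719 and 4804. Aggregates gave 1201 cells at 0 mM and 1054 at 4 mM. TE-like sums held 456611 to 2981693 UMIs, and the Epi-like and aggregate sums 11818706 to 81804868, so TE-like values carry the wider counting error. The smallest TE-like sum, of run 1 at 0 mM, also had the highest median mitochondrial share, 6.1% against 3.68 to 4.04% in the other 3. Results that moved with a mitochondrial limit of 10%, or without that arm, are given with those values. The runs shared 28 cell barcodes, 8 of them among the cells used.

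The classes were checked on markers outside the rule. The 12 trophectoderm markers (GATA2, KRT7, KRT19 and others) summed to 1211, 2186, 1335 and 1853 CPM in TE-like sums, in the order above. In Epi-like sums they came to 114 to 118 CPM. The 11 epiblast markers, with NANOG and SOX2, summed to 191, 108, 306 and 240 CPM in TE-like and 1032 to 1250 CPM in Epi-like sums. The epiblast marker DNMT3L went the other way in 3 of 4 arms, at 136, 66.9, 143 and 102 CPM in TE-like and 81.9 to 102 CPM in Epi-like sums. CGA, a hormone gene of later trophoblast, was at 0 UMIs in 2 of the 4 TE-like sums, and SOX2 was at 0 in the TE-like sum of run 1 at 0 mM. The 5 amnion markers summed to no more than 7.43 CPM in any sum. The 10 primitive endoderm markers summed to 75.1 to 228 CPM in TE-like and 18.7 to 23.7 CPM in Epi-like sums. GATA6 alone was at 49.8 to 103 CPM in the TE-like sums and at 0.741 to 1.18 CPM in the Epi-like sums.

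The sequence elements through which iron and NRF2 act on such genes were read for the members, to show which of them carry the letters near their start. FTH1 (chromosome 11, minus strand) and FTL (chromosome 19, plus strand) each hold 1 copy of the loop CAGTGN of the iron-responsive element in the 5′ untranslated part of their canonical transcript, in 209 and 199 bases. The 30 bases around the loop, on GRCh38 with GENCODE release 44, are given with the loop in capitals, and 26 of the 30 are equal between both genes.
FTH1, chr11:61967573-61967602, minus strand: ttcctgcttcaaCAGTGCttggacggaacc
FTL, chr19:48965335-48965364, plus strand: ctcttgcttcaaCAGTGTttggacggaaca

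The core of the antioxidant response element, TGACNNNGC on either strand, was searched in RefSeq promoter windows of GRCh38.p14 that run from 250 bases before to 50 after a start. Windows were held for 7 of the 9 members, with no entry for FTH1 and HMOX1. The core stood in the windows of GCLM, GPX2 and TXNRD1 (in both of its windows), and 13.3% of all 35116 windows hold it. Windows drawn out to 1000 bases before the start added NQO1 and GCLC, against 33.7% of windows of that length. The NQO1 core, TGACTCAGC, is in 1.53% of those. No match was found for FTL and SRXN1, which says only that these letters are not in the window. The TXNRD1 sequence shown is the core at position -99 to the start in 1 of its windows. Its cores at -8 in that window and at -102 in the other, and the GCLC core at -870, are not printed. The sequences are shown on the strand that reads the core, with the core in capitals.
NQO1, chr16:69726997-69727025, minus strand, core from position -455 to the start: gcagtcacagTGACTCAGCagaatctgag
GCLM, chr1:93909446-93909474, plus strand: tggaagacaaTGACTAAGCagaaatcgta
TXNRD1, chr12:104215670-104215698, plus strand: acacgggctaTGACTTCGCtgttgtcacc
GPX2, chr14:64942849-64942877, plus strand: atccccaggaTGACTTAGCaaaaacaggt

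The comparison of TE-like with Epi-like cells of the same arm asks how the members differ between the lineages of a blastoid. Of the 9 members, 7 were higher in TE-like cells (FTL, NQO1, HMOX1, SRXN1, FTH1, TXNRD1 and GCLM), GPX2 was lower and GCLC did not pass the test (edgeR's quasi-likelihood test with the arm as a block, n = 4 arms, Benjamini-Hochberg adjusted p below 0.05 over 13174 genes). Among all genes tested, 22.5% were higher and 25.6% lower, 48.1% in all. The median log2 difference of the members was 0.93, against -0.05 for all genes. These values are descriptive, given how the members were chosen. The TMM scaling factors of the fit move differences between the classes, and without them the median gene moved by -0.22 on the log2 scale, so that 1909 genes were higher and 4894 lower, against 2961 and 3377. Differences are to be read against that shift. CPM and the ratios within an arm use the totals alone.

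**Figure D1:**
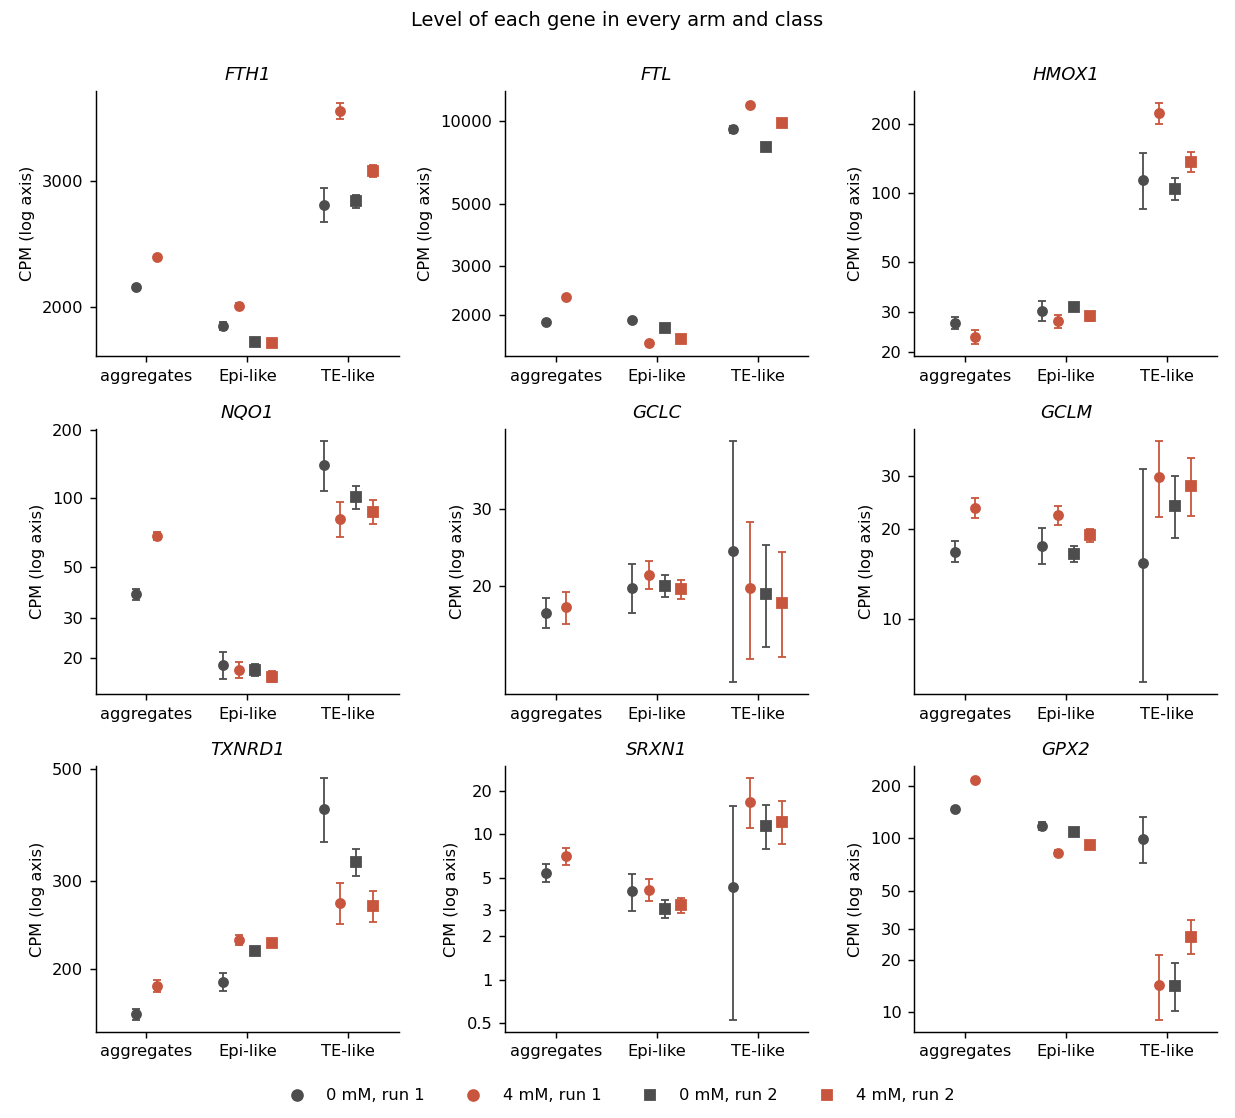
CPM (vertical axes, log scale) of the 9 genes in each sum, with aggregates, Epi-like and TE-like cells on the horizontal axis, grey for 0 mM and red for 4 mM, circles for run 1 and squares for run 2. Bars are exact 95% Poisson intervals, which cover counting error only, and TE-like points of FTL, HMOX1 and NQO1 stand above all others of their panel.

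FTL, the light chain of the ferritin shell that aids iron storage (gene ENSG00000087086, chr19:48965309-48966879, plus strand), was at 9332 and 11461 CPM in TE-like cells of run 1 at 0 and 4 mM and at 8043 and 9859 CPM in run 2. In Epi-like cells it was at 1909, 1575, 1792 and 1630 CPM in the same order. The groups did not overlap, and all 4 arms showed 4.49 to 7.28 times as much in TE-like cells. The fitted difference was 2.68 ± 0.088 (log2, SE; 6.40-fold; adjusted p = 2.6e-15).

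FTH1, the heavy chain that oxidizes the iron for storage (ENSG00000167996, chr11:61959718-61967634, minus strand), was at 2777, 3755, 2807 and 3094 CPM in TE-like cells and at 1879, 2007, 1787 and 1783 CPM in Epi-like cells. Here too no TE-like sum came down to an Epi-like one, but the difference was smaller, 0.93 ± 0.070 (1.90-fold; adjusted p = 1.2e-09). The chains thus rose by unequal amounts. The ratio of FTL to FTH1 UMIs was 3.36, 3.05, 2.86 and 3.19 in TE-like cells and 1.02, 0.785, 1.00 and 0.914 in Epi-like cells. In aggregates it was 0.882 at 0 mM and 0.985 at 4 mM, near the Epi-like values. Together, both chains made up 1.09 to 1.52% of all UMIs in TE-like cells and 0.341 to 0.379% in Epi-like cells. Ferritin genes have many near-identical processed copies in the genome, which have no row of their own in the deposited tables, so how reads from them were counted is not known and both levels are uncertain to that degree.

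The rise in ferritin was spread over the TE-like cells. Per 10000 UMIs of a cell, the median FTL count was 87.0, 113, 72 and 93.8 in the TE-like sums and 18.5, 15.3, 17.1 and 15.8 in the Epi-like sums. The lower quartile of TE-like cells, 44.8 to 95.9, lay above the upper quartile of Epi-like cells, 18.6 to 22.6. For FTH1 the quartiles overlapped, with TE-like medians of 25.2 to 35 and Epi-like medians of 17.2 to 19.3. No single cell held more than 13.0% of a TE-like sum's FTL.

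**Figure D2:**
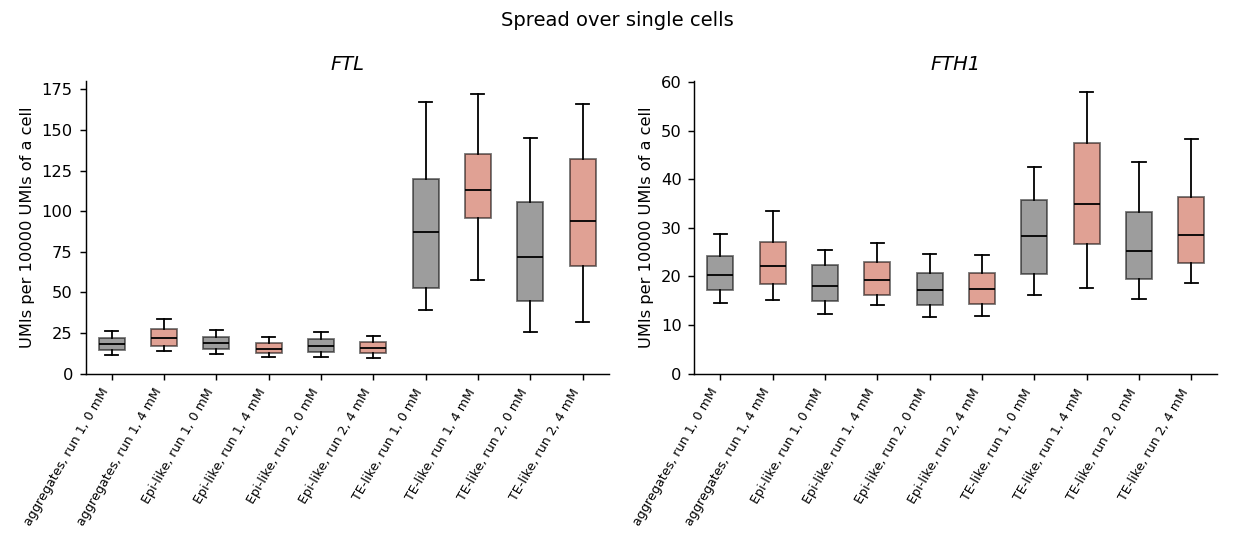
FTL (left) and FTH1 (right) UMIs per 10000 UMIs of a cell (vertical axes) in each arm and class (horizontal axis), grey for 0 mM and red for 4 mM. Boxes span the quartiles with the median as a line and whiskers run from the 10th to the 90th percentile of cells, and the FTL boxes of TE-like cells clear those of all Epi-like and aggregate cells.

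HMOX1, which opens the heme ring and frees its iron (ENSG00000100292, chr22:35380361-35394214, plus strand), was at 114, 224, 104 and 137 CPM in TE-like cells and at 30.4, 27.3, 31.6 and 28.7 CPM in Epi-like cells. The sums stood well apart in each arm, by 3.29 to 8.19 times. The fitted difference was 2.47 ± 0.154 (5.56-fold; adjusted p = 7.4e-11).

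NQO1, the quinone reductase that is a standard readout of NRF2 (ENSG00000181019, chr16:69706996-69726668, minus strand), was at 140, 81.1, 101 and 87.4 CPM in TE-like cells and at 18.6, 17.7, 17.6 and 16.6 CPM in Epi-like cells. Every arm showed more in TE-like cells, by 4.59 to 7.53 times. The difference of 2.68 ± 0.113 (6.42-fold; adjusted p = 1.5e-13) was about as large as that of FTL.

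With every cell thinned to 5000 UMIs, HMOX1 was seen in 44.4, 61.2, 32.6 and 38.8% of TE-like cells and in 12.1 to 14.1% of Epi-like cells (65.7 to 95.9% and 35.3 to 51.2% unthinned). NQO1 was seen in 55.6, 24.5, 30.4 and 35.9% of TE-like and 7.67 to 10.3% of Epi-like cells (56.9 to 94.4% and 22.9 to 39.7% unthinned). Both genes thus differed in the number of cells with a UMI as well as in the sums. Median depths were 15841 to 31693 UMIs per TE-like cell and 15453 to 30015 per Epi-like cell. No cell type that should lack either transcript was at hand, so the share given by free RNA was not measured.

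GCLC and GCLM are the catalytic and modifier subunits of glutamate-cysteine ligase, which makes the rate-limiting step of glutathione synthesis. GCLM (ENSG00000023909, chr1:93885199-93909456, minus strand) was at 15.3, 29.7, 23.8 and 27.8 CPM in TE-like cells and at 17.6, 22.2, 16.5 and 19.1 CPM in Epi-like cells. It was higher in 3 of 4 arms. The exception was run 1 at 0 mM, with 7 UMIs. The difference of 0.67 ± 0.144 (adjusted p = 7.0e-04) did not pass without run 2 (0.45, adjusted p = 0.31). GCLC (ENSG00000001084, chr6:53497341-53616970, minus strand) was at 24.1, 19.8, 19.1 and 18.3 CPM in TE-like and 19.8, 21.2, 20.0 and 19.6 CPM in Epi-like cells. These groups overlapped, and its difference of 0.17 ± 0.144 (adjusted p = 0.35) was -0.05 without TMM factors. The subunits therefore did not move alike in the tests, though the difference between them was not itself tested.

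TXNRD1, the cytosolic thioredoxin reductase (ENSG00000198431, chr12:104215779-104350307, plus strand), was at 416, 271, 326 and 267 CPM in TE-like cells and at 189, 229, 218 and 225 CPM in Epi-like cells. It was higher in TE-like cells of each arm, more so at 0 mM (2.2 and 1.5 times) than at 4 mM (1.18 and 1.19 times). The fitted difference was 0.73 ± 0.106 (1.66-fold; adjusted p = 1.1e-05). SRXN1, which repairs overoxidized peroxiredoxins (ENSG00000271303, chr20:646615-653200, minus strand), was the lowest member, at 4.38, 16.7, 11.4 and 12.2 CPM in TE-like and 4.06, 4.14, 3.07 and 3.26 CPM in Epi-like cells. The TE-like values rest on 2, 27, 34 and 36 UMIs, and in run 1 at 0 mM the ratio to Epi-like cells was 1.08 with an interval of 0.127 to 4.11. Its difference was 2.03 ± 0.241 (4.09-fold; adjusted p = 8.0e-07).

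**Figure D3:**
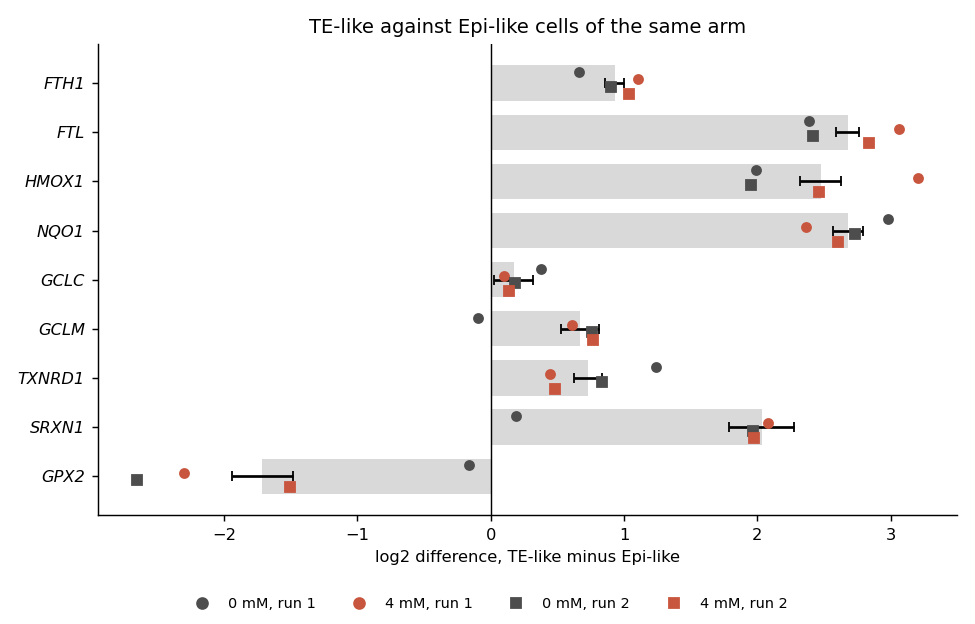
Log2 difference of TE-like minus Epi-like cells (horizontal axis) for the 9 genes. Grey bars are the fitted differences with their SE, and points are the 4 arms on the scale of the fit (grey 0 mM, red 4 mM, circles run 1, squares run 2). GPX2 alone lies to the left in all 4 arms, with 1 arm near 0.

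GPX2, a glutathione peroxidase known from gut epithelium (ENSG00000176153, chr14:64939152-64942746, minus strand), ran against the other members. It was at 98.6, 14.2, 14.1 and 27.1 CPM in TE-like cells and at 118, 82.8, 109 and 92.0 CPM in Epi-like cells. The difference was -1.71 ± 0.231 (3.28-fold lower; adjusted p = 4.3e-06), and was -1.14 without run 2 and -2.07 without run 1. The TE-like sum of run 1 at 0 mM stood close to the Epi-like ones. There, 41 of the 45 GPX2 UMIs came from 1 cell of 34043 UMIs, which lay near the line between the classes with 19 trophectoderm against 17 epiblast UMIs. The same cell held 59 UMIs of primitive endoderm markers, among them GATA4 (4), GATA6 (5), SOX17 (4), PDGFRA (6) and FOXA2 (5).

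In the TE-like class 4 cells had at least 10 GPX2 UMIs, and each held 32 to 59 UMIs of the primitive endoderm markers. Taking primitive endoderm markers as the criterion, 6 TE-like cells (1, 3, 0 and 2 by sum) and 1 Epi-like cell held at least 10 of their UMIs. Those 6 cells carried 91.1, 82.6, 0 and 52.5% of the GPX2 UMIs of their sums. Summed over these cells, GPX2 was at 1204, 192 and 1263 CPM in the sums that had them, above the Epi-like sums. The 1 Epi-like cell was at 1615 CPM. In run 1 at 4 mM, 18 of the 19 GPX2 UMIs of the 3 cells came from 1 cell. High GPX2 was thus not a trait of each of the 6 cells. Without the cells rich in endoderm markers the TE-like sums were at 9.47, 2.64, 14.1 and 13.0 CPM. The difference from Epi-like cells became -2.95 ± 0.188 (adjusted p = 1.9e-10). The minimum of 10 marker UMIs was set after the values were seen. Requiring the classes to be 2 times apart, with no use of endoderm markers, gave -2.89 for GPX2. That margin is not independent, since it drops GPX2-rich cells of 19 against 17, 17 against 11 and 14 against 13 rule UMIs. It keeps the GPX2-rich cell of 16 against 6. No name is given to these cells, which are too few to stand as a class, and whether any was a doublet was not tested. Without them the other 8 members kept their side of the test, with FTL at 2.72 and TXNRD1 at 0.70.

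Across Epi-like cells GPX2 was spread evenly, with a UMI in 34.5 to 42.9% of cells thinned to 5000 UMIs (68.2 to 88.7% unthinned). In TE-like cells the share was 22.2, 2.04, 5.52 and 7.65% (27.8, 12.2, 13.8 and 17.1% unthinned). In aggregates it was 46.6% at 0 mM and 59.8% at 4 mM (90.4 and 94.2% unthinned).

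**Figure D4:**
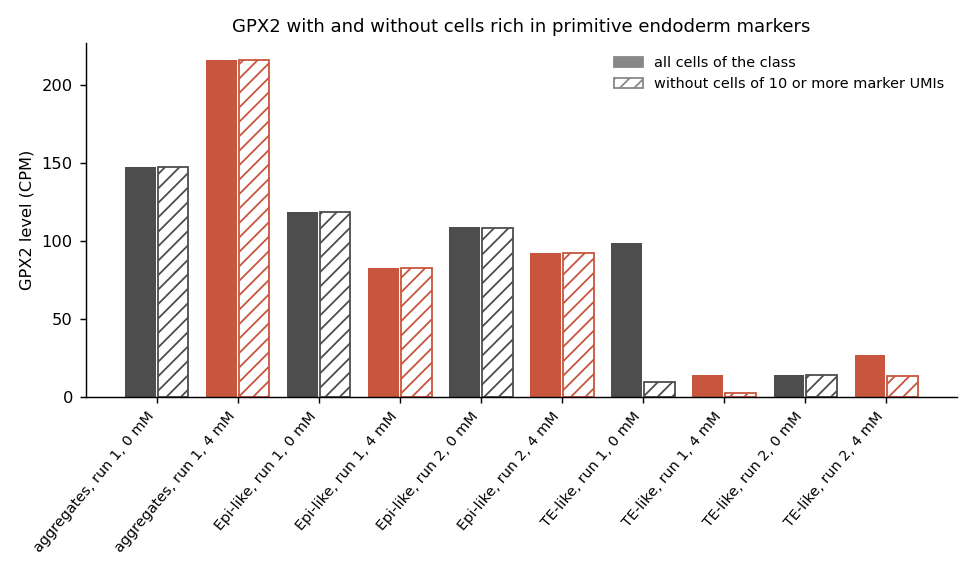
GPX2 level in CPM (vertical axis, from 0) in each arm and class, over all cells (filled bars) and without cells of at least 10 primitive endoderm marker UMIs (hatched bars), grey for 0 mM and red for 4 mM. The TE-like bar of run 1 at 0 mM falls from 98.6 to 9.47 CPM, and aggregate and Epi-like bars scarcely move.

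Whether early dm-αKG left a mark on the members in blastoids was asked by comparing 4 with 0 mM in each class, with the run as a block (n = 2 arms per dose). In TE-like cells none of the 9 members passed edgeR's test over 9104 genes, of which 0.648% rose and 0.791% fell. Before adjustment 5 of 9 had a p below 0.05, against 9.19% of all genes, and DESeq2 called 0 as well. HMOX1 came nearest, at 114 against 224 CPM (run 1) and 104 against 137 CPM (run 2). Its change was 0.59 ± 0.169 (1.51-fold; adjusted p = 0.084). It passed in 5 of the alternatives (adjusted p = 0.022 to 0.047). Apart from the fit without TMM factors, these drew the spread wholly from all genes together (infinite prior weight). The reported fit did not (26.3 prior degrees of freedom). HMOX1 did not pass in DESeq2 (1.0), with classes 2 times apart (0.092) or with the looser hashtag quantile (0.19). Nor did it pass without the replicate block (0.28) or without the cells rich in endoderm markers (0.064). TE-like sums at 4 mM also held more trophectoderm marker RNA than those at 0 mM (1211 to 2186 and 1335 to 1853 CPM). Their epiblast marker RNA was lower (191 to 108 and 306 to 240 CPM). Whether dose differences of genes in TE-like cells follow from that was not tested.

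FTL was 1.23 times as high at 4 mM in each run, with a fitted change of 0.27 ± 0.098 (adjusted p = 0.27). FTH1 was 1.35 and 1.10 times as high (0.26 ± 0.109, adjusted p = 0.41). TXNRD1 was at 0.650 and 0.819 times its 0 mM level (-0.46 ± 0.140, adjusted p = 0.12) and NQO1 at 0.579 and 0.866 times (-0.45 ± 0.181, adjusted p = 0.37). Each of these 4 had 1 sign in both runs, and the change was larger in run 1 for all but FTL. With the mitochondrial limit at 10%, FTL (adjusted p = 0.049) and TXNRD1 (0.041) passed beside HMOX1, in a fit of infinite prior weight. GCLC (-0.15 ± 0.289), GCLM (0.37 ± 0.269) and SRXN1 (0.41 ± 0.369) had adjusted p-values of 0.78 to 0.94. GPX2 had opposite signs in the runs (0.145 and 1.92 times), and without the cells rich in endoderm markers its change was -0.33 ± 0.380.

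In Epi-like cells, 1 member rose and 2 fell among 17014 genes, of which 5.20% rose and 3.49% fell, or 8.69% in all. GPX2 fell, at 82.8 against 118 CPM (run 1) and 92.0 against 109 CPM (run 2) (-0.37 ± 0.068, 1.29-fold lower, adjusted p = 3.9e-04). GCLM rose from 17.6 to 22.2 CPM and from 16.5 to 19.1 CPM (0.25 ± 0.081, adjusted p = 0.042). FTL fell from 1909 to 1575 CPM and from 1792 to 1630 CPM (-0.21 ± 0.069, adjusted p = 0.049). The doses did not overlap for these 3 genes. With 2 sums per dose that readily arises by chance, and the share of all genes with it was not counted.

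The other 6 had changes between -0.14 and 0.15, with TXNRD1 at 0.15 ± 0.064 (adjusted p = 0.14) and HMOX1 at -0.14 ± 0.072 (adjusted p = 0.24). All 3 calls were lost without the replicate block (adjusted p = 0.18 for GPX2, 0.36 for GCLM and 0.33 for FTL), where 16 genes in all passed. DESeq2 called GPX2 alone, and the FTL call was also lost with size factors (0.057), with 7000 UMIs in both runs (0.053) and without the cell rich in endoderm markers (0.0503), and the GCLM call without TMM factors (0.061).

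The dose effects of the classes were set against each other in 1 fit over 8 sums. The dose effect was greater in TE-like than in Epi-like cells for HMOX1, by 0.87 ± 0.199 (adjusted p = 0.0036), and for FTL, by 0.54 ± 0.144 (adjusted p = 0.025). These 2 of 9 compare with 0.774% of 13174 genes called, 0.380% with the greater effect in TE-like cells and 0.395% with the smaller. For HMOX1 the excess was 1.12 in run 1 and 0.53 in run 2, and for FTL 0.57 and 0.43. FTL fell in Epi-like cells and was higher in TE-like cells at 4 mM in both runs. TXNRD1 went the other way, by -0.54 ± 0.168 (adjusted p = 0.11), and passed with DESeq2 size factors (0.022) and without TMM factors (0.0077). The HMOX1 call was lost in DESeq2 (adjusted p = 0.18), and the FTL call with classes 2 times apart (0.085) and with the looser hashtag quantile (0.059).

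**Figure D5:**
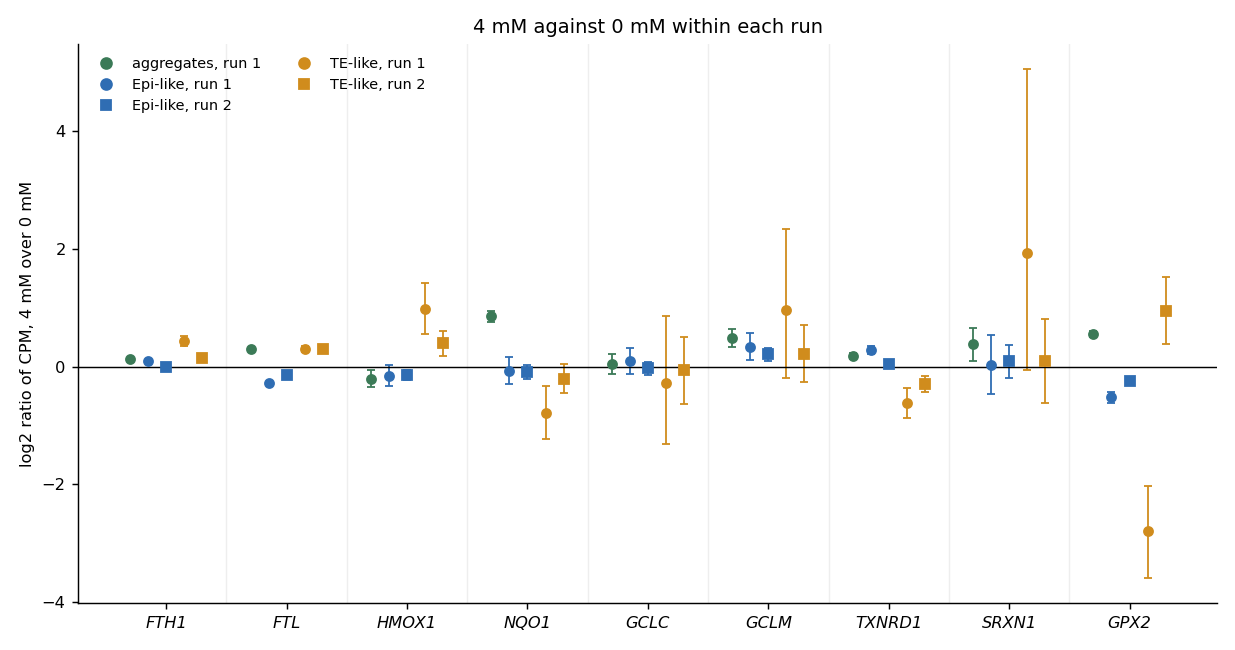
Log2 ratio of CPM at 4 over 0 mM (vertical axis) for the 9 genes in aggregates (green), Epi-like (blue) and TE-like cells (orange) of run 1 (circles) and run 2 (squares). Bars are exact 95% intervals of the ratio for counting error only, and NQO1 and GPX2 are raised in aggregates but not in Epi-like cells.

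In aggregates at 40 h, still in the compound when collected, 1 arm per dose allows no test. Ratios carry counting intervals only. NQO1 was at 37.9 CPM (36.0 to 40.0) at 0 mM and 68.5 CPM (65.6 to 71.5) at 4 mM, a ratio of 1.81 (1.69 to 1.93). GPX2 was at 147 CPM (144 to 151) and 216 CPM (211 to 222), a ratio of 1.47 (1.41 to 1.52). These 2 passed a log2 ratio of 0.5, which 1.55% of 5090 genes at 20 CPM or more passed upward and 1.83% downward, 3.38% in all.

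GCLM followed at 1.40 times (1.26 to 1.56), SRXN1 at 1.30 (1.07 to 1.58), FTL at 1.23 (1.22 to 1.24), TXNRD1 at 1.14 (1.10 to 1.18) and FTH1 at 1.10 (1.09 to 1.11). GCLC was at 1.03 (0.918 to 1.16), an interval that takes in 1. HMOX1 was the only member below 1, at 0.867 (0.786 to 0.956). Over the 7 members at 20 CPM or more the median log2 ratio was 0.30, against -0.03 for all such genes. Median mitochondrial share was 4.19% at 0 mM and 5.16% at 4 mM, and 71.7 and 55.7% of singlets passed the filters. With the mitochondrial limit at 10% the log2 ratio was 0.85 for NQO1 and 0.55 for GPX2, and with a minimum of 5000 UMIs 0.84 and 0.55, against 0.84 and 0.55 as reported.

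Aggregates were set beside Epi-like cells of run 1, where stage, medium and picking differ together. NQO1 in Epi-like cells was 0.491 times (0.424 to 0.566) its aggregate level at 0 mM and 0.258 times (0.235 to 0.283) at 4 mM. GPX2 was 0.803 times (0.757 to 0.852) and 0.383 times (0.366 to 0.400). TXNRD1 was 1.16 times (1.10 to 1.22) and 1.23 times (1.19 to 1.28). NQO1 and GPX2 were thus lower in these Epi-like cells than in aggregates at both doses, and TXNRD1 was higher. Both genes that stood highest over control in treated aggregates were no higher at 4 than at 0 mM in Epi-like cells of either run.

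Genes that act with the members were taken from 8 lists. Between TE-like and Epi-like cells the median log2 difference was 0.37 for iron handling, 0.18 for regulators of NRF2, 0.14 for immediate early genes and -0.45 for ATF4 targets, and -0.06 to -0.01 for the other 4 lists, against -0.05 for all genes. With dose in Epi-like cells the median was 0.37 for ATF4 targets, 0.18 for regulators of NRF2, -0.18 for immediate early genes and -0.10 for heme genes, and -0.07 to 0.05 for the other 4 lists, against -0.01 for all genes. In aggregates, the log2 ratio passed 0.5 upward in 3 of 7 ATF4 targets and 1 of 3 immediate early genes (1.55% of all genes at 20 CPM or more). It passed downward in 1 of 4 genes of selenoprotein synthesis (1.83% of those genes). In the other 5 lists 0 passed. Among 11 regulators of NRF2, 4 were higher and 2 lower in TE-like than in Epi-like cells (22.5 and 25.6% of all genes). NFE2L2, which encodes NRF2, was at 34.2 to 45.8 CPM in TE-like and 23.4 to 31.7 CPM in Epi-like sums (0.79 ± 0.119, adjusted p = 1.6e-05). NFE2L1, a relative of NRF2, was lower (-1.20 ± 0.158, adjusted p = 3.4e-06). BACH2 passed as lower, at 0 to 0.339 CPM against 2.28 to 3.92 CPM. With dose, 2 of the 11 rose in Epi-like cells (5.20% of all genes) and 0 of 9 tested passed in TE-like cells.

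Of 17 other NRF2 targets tested between the classes, 5 were higher and 4 lower, a split near that of all genes. CBR1, a carbonyl reductase, was higher by 3.11 ± 0.233 (adjusted p = 1.2e-09), TALDO1 of the pentose phosphate pathway by 1.12 ± 0.077 (3.7e-10) and the microsomal transferase MGST1 by 0.87 ± 0.091 (1.4e-07). The exporter ABCC2 was lower (-1.88 ± 0.365, adjusted p = 2.7e-04), a call lost without run 2 (0.094). With dose in TE-like cells 1 of 15 tested rose, against 0.648% of all genes. This was CBR1, from 28.5 to 129 CPM and from 48.6 to 98.2 CPM (1.30 ± 0.212, adjusted p = 5.7e-04). In Epi-like cells it was at 13.7, 10.1, 10.6 and 9.5 CPM, and its dose effect differed between the classes by 1.56 ± 0.232 (adjusted p = 3.6e-08). In Epi-like cells 2 of the 17 targets tested rose with dose, against 5.20% of all genes. Among them was the cystine importer SLC7A11 at 0.52 ± 0.070 (adjusted p = 2.3e-06, and 0.081 without the replicate block).

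Among 20 genes of iron handling, 15 were tested between the classes, where 7 were higher in TE-like cells and 3 lower (22.5 and 25.6% of all genes). ACO1, the cytosolic aconitase that doubles as an iron regulatory protein, was higher by 1.60 ± 0.150 (adjusted p = 3.1e-08). NCOA4, which delivers ferritin to lysosomes, was higher by 1.44 ± 0.130 (1.8e-08), the mitochondrial importer SLC25A37 by 0.87 ± 0.120 (5.9e-06) and TFRC, the transferrin receptor, by 1.34 ± 0.125 (2.8e-08). TFRC was at 254, 157, 268 and 176 CPM in TE-like cells and at 84.4, 96.4, 93.0 and 102 CPM in Epi-like cells. It fell with dose in TE-like cells (-0.66 ± 0.147, adjusted p = 0.013). Its dose effect was lower there than in Epi-like cells by -0.77 ± 0.179 (adjusted p = 0.0043), the opposite direction to FTL. The TE-like call was lost without the replicate block (0.079), with the looser hashtag quantile (0.059) and in DESeq2 (0.37).

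Of 15 heme genes, 4 were higher and 3 lower in TE-like cells, near the 22.5 and 25.6% of all genes. ALAS1 and ALAD, which make the opening steps of heme synthesis, were higher by 1.06 ± 0.177 (a call lost without run 2, adjusted p = 0.070) and 0.97 ± 0.150, HEBP2 by 0.55 ± 0.091, and the heme exporter FLVCR1 was at -0.90 ± 0.154. In Epi-like cells FLVCR1 rose with dose (0.36 ± 0.074) and BLVRB, a biliverdin reductase, fell (-0.35 ± 0.071). Both calls were lost without the replicate block (adjusted p = 0.18 and 0.19), and that of FLVCR1 in DESeq2 (0.067). GPX2 and TXNRD1 contain selenocysteine. Of 7 genes of selenoprotein synthesis 0 were higher and 3 lower in TE-like cells (22.5 and 25.6% of all genes), with SEPHS2 at -0.88 ± 0.095 and SEPHS1 at -0.95 ± 0.118. With dose in Epi-like cells 1 of the 7 rose, against 5.20% of all genes.

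Of 25 peroxidase, thioredoxin and glutathione genes tested between the classes, 7 were higher and 10 lower (22.5 and 25.6% of all genes). The glutaredoxin GLRX2 was higher by 2.45 ± 0.228, and SESN3 (-2.13 ± 0.251), SESN1 (-1.35 ± 0.191) and PRDX3 (-0.59 ± 0.088) were lower. GSTO1, a glutathione transferase, fell with dose in TE-like cells, from 403 to 160 CPM and from 263 to 185 CPM (-0.89 ± 0.164, adjusted p = 0.0021), a call lost with the looser hashtag quantile (-0.52, adjusted p = 0.16) and without the replicate block (0.060). With dose in Epi-like cells 2 of 27 rose (TXNIP by 0.64 ± 0.096, SESN2 by 0.37 ± 0.070) and 2 fell, GSTP1 among them (-0.32 ± 0.072), against 5.20 and 3.49% of all genes. Without the replicate block these 3 calls were lost (adjusted p = 0.15 for TXNIP, 0.20 for SESN2 and 0.21 for GSTP1). Of 10 ATF4 targets, 7 rose with dose in Epi-like cells and 1 of 8 tested in TE-like cells, against 5.20 and 0.648% of all genes. SESN2 is on this list and on that of the peroxidases, and its rise is counted in both. In TE-like cells 7 of the 10 were lower than in Epi-like cells (25.6% of all genes). In Epi-like cells DDIT4 rose by 0.96 ± 0.063 and CHAC1 by 0.99 ± 0.090. The TE-like call was DDIT4 (0.72 ± 0.185, adjusted p = 0.044), lost in DESeq2 (1.0), with classes 2 times apart (0.11), with the looser hashtag quantile (0.087), without the replicate block (0.19) and without the cells rich in endoderm markers (0.059). Of 13 immediate early genes, which respond to handling, 5 were higher and 4 lower in TE-like cells (22.5 and 25.6% of all genes). IER3 was higher by 1.64 ± 0.212. With dose, 1 of 10 tested rose and 1 fell in TE-like cells, against 0.648 and 0.791% of all genes.

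Likeness of pattern was described over the 10 sums among 4984 genes, as Pearson's r of log2(CPM + 1). The sums share libraries and 2 classes that differ in most of these genes, so r is high for many genes and no test is given. FTL was most like STARD10 (0.998), GATA3 (0.996, a gene of the TE-like rule) and S100A14 (0.994). HMOX1 was most like SKP2 (0.994), TINAGL1 (0.989) and NR2F2 (0.989). NQO1 was most like ANXA3 (0.974), TALDO1 (0.973) and ATP5PB (0.973), and GPX2 most like TACO1 (0.983), MRPS36 (0.978) and NARF (0.976). TALDO1 is the one of these that is itself on the list of NRF2 targets.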

How the data were processed

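The authors demultiplexed reads with bcl2fastq 2.20.0.422 and aligned and counted them with Cell Ranger 6.1.2 (GRCh38, reference of 10x Genomics), per the labels and the study's methods, and worked on in Seurat 4.3.0. The deposited tables hold raw UMI counts of genes and hashtags for 9431 barcodes in run 1 and 15133 in run 2, with 144122560 and 200278140 gene UMIs. Hashtags were assigned here with HTODemux of Seurat 5.3.0 at a quantile of 0.99, which gave 6012 and 10400 singlets. The 512 and 1142 doublets between hashtags and 2907 and 3591 negatives were left out, and doublets within a hashtag were not sought. Cells had at most 15% mitochondrial UMIs and at least 7000 (run 1) or 5000 UMIs (run 2), the limits the study used. Within 2 times of the line between the classes lay 0.288 to 0.980% of Epi-like and 4.08 to 9.94% of TE-like cells. In aggregates 1 and 2 cells lay on the TE-like side, and all aggregate cells were used.

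The sums of UMIs by arm and class went into edgeR 4.0.16 (R 4.3.3), with its low-count filter, TMM factors and quasi-likelihood F test, and p-values were adjusted by Benjamini-Hochberg over all genes tested. Alternatives were DESeq2 1.42.0, other scalings, filters, hashtag and mitochondrial limits, a margin between the classes and leaving out each run or arm. Methods were tested on simulated data. The block was the run for dose and the arm between classes, since the runs are separate experiments and both classes of an arm share 1 culture and library. Across 4984 genes the run difference at 0 mM correlated with that at 4 mM (r = 0.577 in Epi-like and 0.244 in TE-like sums), and the deviations of both classes of an arm at 0.221 to 0.323. All cells are of 1 line, so p-values speak only for these cultures. The dose fits left 1 residual degree of freedom, the test of the dose effect between classes 2 and the comparison of classes 3. The spread behind a p-value was thus drawn mostly from all genes together. For the dose effect between classes it was drawn wholly from them, since that prior had infinite weight. The same held for several alternative fits of dose within a class. Intervals are exact 95% Poisson (levels) or conditional binomial (ratios, scipy 1.17.1) and cover counting error only. Log2 ratios within an arm or between doses of a run add 0.5 CPM. Gene positions are from GENCODE 44.

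The members and gene lists were chosen with earlier results of these data known. List genes were named by the smallest adjusted p, up to 4 per list and comparison, among those below 0.05 with a log2 change of at least 0.5 (0.3 for dose in Epi-like cells). Only some of these are printed. Likeness of pattern covered FTL, HMOX1, GPX2 and NQO1, with the 3 nearest genes of at least 20 CPM.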

Additional observations from a re-analysis of the deposited data

Results flagged for a closer look

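The dose effect differed between TE-like and Epi-like cells for HMOX1, by 0.87 on the log2 scale (adjusted p = 0.0036), and for FTL, by 0.54 (adjusted p = 0.025), by the test of the difference itself. The HMOX1 call was lost in DESeq2 (0.18) and the FTL call with classes 2 times apart (0.085) and with a hashtag quantile of 0.95 (0.059).

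In aggregates the ratio of 4 to 0 mM lay on the other side of 1 from both runs of a blastoid class for some members, and these contrasts were not tested, since the aggregates have 1 arm per dose. The aggregate log2 ratio was 0.84 for NQO1. The NQO1 ratios of the blastoid classes lay below 1, but the intervals took in 1 in Epi-like cells of run 1 (0.949, 0.811 to 1.11) and run 2 (0.938, 0.865 to 1.02) and in TE-like cells of run 2 (0.866, 0.730 to 1.03), so no direction is shown there. In TE-like cells of run 1 it was 0.579 (0.426 to 0.793). For GPX2 it was 0.55 and for FTL 0.30, each opposite to both Epi-like runs, whose intervals lay below 1. For TXNRD1 it was 0.19 and for HMOX1 -0.20, each opposite to both TE-like runs, whose intervals left out 1.

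Over the 4 blastoid arms, the difference of TE-like minus Epi-like cells on totals alone had 1 arm far from the others for 3 members, each time run 1 at 0 mM with its 18 TE-like cells. That arm was at 0.28 for GCLC, the highest, at -0.19 for GCLM and at 0.10 for SRXN1, the lowest, from 11, 7 and 2 TE-like UMIs. Chance marks about 1 in 20 such groups.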

How the results depend on the processing

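Between TE-like and Epi-like cells, 142 of 144 values of members under alternatives kept their direction and side of the test. The exceptions were GCLC, at -0.050 without TMM factors, and GCLM, not called without run 2. Without TMM factors 1909 genes were higher. Leaving out a run or an arm gave 1270 to 2884 higher and 1538 to 3474 lower genes, the lowest counts without run 2.

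With dose in TE-like cells, 59 genes rose and 72 fell. The counts were 92 and 117 with DESeq2 size factors, 12 and 18 in DESeq2, 91 and 112 with 7000 UMIs in both runs, 98 and 117 with the mitochondrial limit at 10%, 36 and 39 with a hashtag quantile of 0.95, and 21 and 16 without the replicate block. Members called were 0 as reported, 1 with size factors, without TMM factors, without a low-count filter or with 7000 UMIs, and 3 with the mitochondrial limit at 10%. All of these alternatives except that without TMM factors had infinite prior weight. GPX2 turned to 0.57 with classes 2 times apart.

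With dose in Epi-like cells, 885 rose and 593 fell with 3 members called, against 162 and 56 with 1 member in DESeq2, and 15 and 1 with 0 members without the replicate block. For the difference in dose effect between the classes, DESeq2 called 10 and 18 genes with 1 member (50, 52 and 2 as reported), and 1 member was called with classes 2 times apart or a hashtag quantile of 0.95. GPX2 there was 0.63 with classes 2 times apart and 0.090 without the replicate block. In aggregates without a filter on low values 1612 genes (6.47%) passed the fold, against 172. The causes of these shifts were not tested.

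The limits are 2 runs of 1 line, 18 to 181 TE-like cells per sum, 1 aggregate arm per dose, and 2 to 36 SRXN1 UMIs in a TE-like sum, where a dose difference was not detectable at this depth. Leaving out a run leaves 1 arm per dose, so those dose values carry no test.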
